A study of Mus musculus with 12 samples.

Results

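Triglyceride synthesis and glycerol handling was followed through 8 genes: Gpd1, Aqp7 and Pck1, which supply or move glycerol and glycerol 3-phosphate, and Gpam, Agpat2, Lpin1, Dgat1 and Dgat2, which build the triglyceride on it. The 8 genes were picked by symbol, as 8 of the 53431 genes of the count table, and all 8 were among the 15968 genes that could be tested. RNA was sequenced from adipose tissue of mice on a C57BL/6 x 129/SvJ background at 6 months of age. There were 3 groups of 4 libraries: WT mice without treatment, Bbs2-/- mice without treatment, and Bbs2-/- mice given Genz-667161, an inhibitor of glucosylceramide synthase (GCS), in the feed at 0.033% by weight from 2 to 6 months of age. No WT mice with the inhibitor were among the samples, so both treated comparisons carry the Bbs2-/- genotype on the treated side. The BBSome, of which the BBS2 protein is one subunit, sorts receptors at the primary cilium, and people who lack it have Bardet-Biedl syndrome with early weight gain. The labels give neither the fat depot nor the sex, and do not say that each library came from a separate mouse. The p-values therefore measure the spread between these libraries.

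Fat cells store energy as triglyceride, which is 3 fatty acids esterified to a glycerol backbone. Because adipocytes hold little glycerol kinase, their backbone comes mostly as glycerol 3-phosphate made from glycolysis by GPD1 or from pyruvate through PCK1, a route called glyceroneogenesis. GPAT enzymes add the first acyl chain, AGPAT enzymes the second, lipins remove the phosphate, and DGAT enzymes add the last chain. AQP7 is the membrane channel through which glycerol passes out of the fat cell when triglyceride is broken down.

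Of the 8 genes, 5 have a promoter entry in the RefSeq-based table used here (GRCm38.p6). The 250 bases before the start are shown for 3 genes that fell in untreated Bbs2-/- tissue and rose with the inhibitor, Pck1, Aqp7 and Lpin1, and for Gpam, which passed neither test. They run 5′ to 3′ on the strand of the gene, and capitals mark matches to 5 short motifs searched on both strands: TGACG (cAMP response element half-site), AGGTCA (nuclear receptor half-site), CCAAT (a box bound by NF-Y), GGGCGG (GC box) and TATAAA. The positions are chr2:173152823-173153072 (plus strand) for Pck1, chr4:41048137-41048386 (minus) for Aqp7, chr12:16610967-16611216 (minus) for Lpin1 and chr19:55127239-55127488 (minus) for Gpam. Aqp7 and Gpam each have 2 entries, and the first is shown.
Pck1: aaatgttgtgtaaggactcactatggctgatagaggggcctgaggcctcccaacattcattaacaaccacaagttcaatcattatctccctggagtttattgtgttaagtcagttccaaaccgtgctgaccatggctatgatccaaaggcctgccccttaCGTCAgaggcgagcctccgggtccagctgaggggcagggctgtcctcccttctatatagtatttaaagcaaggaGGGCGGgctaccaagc
Aqp7: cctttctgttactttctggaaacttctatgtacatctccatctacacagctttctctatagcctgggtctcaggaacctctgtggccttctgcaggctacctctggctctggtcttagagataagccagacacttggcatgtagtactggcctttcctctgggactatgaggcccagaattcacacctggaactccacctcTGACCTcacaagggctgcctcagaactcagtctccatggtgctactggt
Lpin1: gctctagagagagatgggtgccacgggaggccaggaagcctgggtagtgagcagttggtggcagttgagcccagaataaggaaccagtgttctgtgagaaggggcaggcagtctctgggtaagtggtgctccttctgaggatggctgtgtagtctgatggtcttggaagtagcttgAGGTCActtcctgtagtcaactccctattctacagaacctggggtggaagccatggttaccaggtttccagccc
Gpam: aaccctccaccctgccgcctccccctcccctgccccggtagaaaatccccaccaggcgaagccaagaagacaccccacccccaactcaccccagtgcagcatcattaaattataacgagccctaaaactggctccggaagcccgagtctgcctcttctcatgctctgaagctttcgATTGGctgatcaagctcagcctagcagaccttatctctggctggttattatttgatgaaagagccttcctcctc
Pck1 held TGACG on the opposite strand, 90 to 86 bases before the start, and a GC box 16 to 11 bases before it. Aqp7 held AGGTCA on the opposite strand at 49 to 44 bases, and Lpin1 held it on the gene's strand at 74 to 69 bases. Gpam had CCAAT on the opposite strand at 74 to 70 bases and none of the other 4 motifs in this window. The second Gpam entry, not printed, held TGACG on the opposite strand at 31 to 27 and at 9 to 5 bases, AGGTCA at 196 to 191 bases and a GC box on the opposite strand at 16 to 11 bases. In the second Aqp7 entry, whose window overlaps the printed one, AGGTCA stood on the opposite strand at 223 to 218 and 101 to 96 bases. Agpat2, not printed, held GC boxes at 42 to 37 and at 37 to 32 bases. Such letters are common: of 32851 promoter entries of this length, 17.8% held TGACG, 14% AGGTCA, 33.8% CCAAT, 32.7% GGGCGG and 12.4% TATAAA. A match is a description of the letters and was not linked to the values that follow.

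The libraries held 16317865 to 20224200 estimated counts each. Levels are given as counts in 1000000 (CPM) after TMM scaling, a scaling that sets the bulk of genes equal between libraries, and levels of different genes are compared as FPKM, which is per gene length. The tissue label was checked against markers: the 11 mature adipocyte markers summed to 28444 to 47129 CPM in WT, 14939 to 19150 in untreated Bbs2-/- and 30875 to 46186 in treated libraries, with Fabp4, Cidec and Plin4 highest on average over the 3 groups. The 15 macrophage markers summed to 895 to 2923, 6925 to 9666 and 823 to 2074 CPM. Ucp1, the defining gene of brown fat, reached at most 3.92 CPM. Library WT 1 had the lowest adipocyte sum and the highest macrophage sum of its group and also 1082 CPM of the epididymis gene Crisp1, which was at most 0.291 elsewhere. The 8 epididymis markers together summed to 1083 CPM in WT 1, so nearly all of that sum was Crisp1 and the rest of the list stayed low. Library treated 1 had 1501 CPM of the liver gene Alb. Foxj1, a ciliated epithelium gene, had 2.61 CPM in WT 1, 9.53 in WT 4, 7.97 in treated 1, 7.41 in treated 3 and no more than 0.135 in any other library. The 7 ciliated epithelium markers together summed to 72.7, 109, 92.2 and 92.7 CPM in these 4 libraries and to 61.5 to 169 in the others. That sum, most of it Tppp3, did not set the 4 libraries apart, so the split rests on Foxj1. Bbs2 itself stood at 12.1 to 12.7 CPM in the libraries labelled WT and at 53.7 to 70.6 in those labelled Bbs2-/-, so the transcript level goes against a loss of the RNA. What the allele removes is not given in the labels.

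In untreated Bbs2-/- tissue against WT, 5 of the 8 genes fell, 0 rose and 3 did not pass the test, at an adjusted p under 0.05 in edgeR's quasi-likelihood test. Pck1, Aqp7, Dgat1, Lpin1 and Dgat2 fell, while Gpam, Gpd1 and Agpat2 did not pass. Of all genes tested, 39.2% passed in this comparison, 19.6% as higher and 19.7% as lower. The median log2 fold change of the 8 genes was -0.62, against -0.02 over all genes. These directions are relative to the bulk of genes: when libraries were instead scaled to 5 adipocyte markers, only the fall of Pck1 among these 5 genes kept its direction and passed. Without WT 2 and WT 3, whose library names are of another type, 3 of the 8 fell, as did 3 without untreated 2. Without the 4 libraries with Foxj1 counts 6 fell, and without WT 1 the number was 5.

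With the inhibitor, treated against untreated Bbs2-/- tissue, 6 of the 8 genes rose and 0 fell: Pck1, Dgat1, Dgat2, Agpat2, Lpin1 and Aqp7. All genes tested gave 37.2% past the threshold, 18.5% as higher and 18.8% as lower. The median of the 8 genes was 0.88 on the log2 scale, against 0.03 over all genes. Scaled to the 5 adipocyte markers, 5 of these 6 genes had negative differences that did not pass, and Pck1 rose. The number that rose was 6 without treated 1 and also without the 4 libraries with Foxj1 counts. Treated against WT, 0 of the 8 genes passed, where 0.257% of all genes did (41 genes, 0.175% as higher and 0.0814% as lower). At an unadjusted p under 0.05 there were 2 of 8, Dgat2 and Aqp7, beside 10.6% of all genes, and DESeq2 called 1, Dgat2. The 3 comparisons share libraries, the untreated group standing in the first and second, so a fall in one and a rise in the next are not separate observations.

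**Figure D1:**
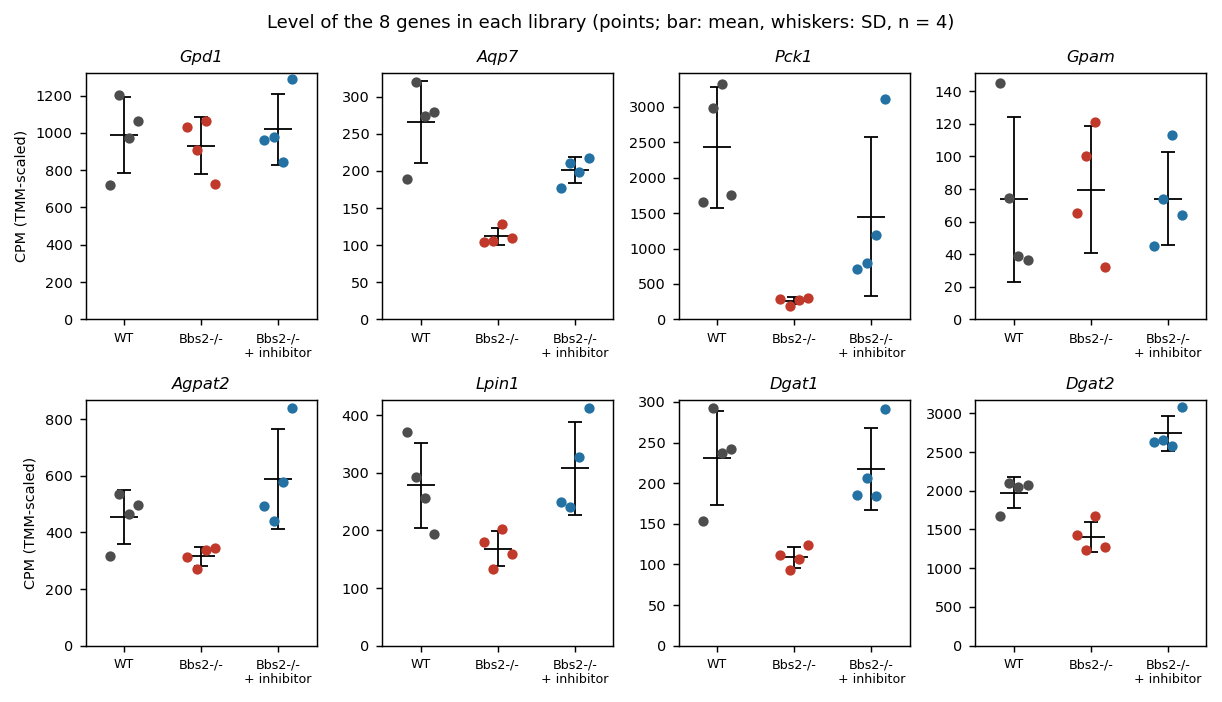
Level of each gene in each library, in CPM after TMM scaling on a linear axis from 0, with points for the 4 libraries of each group, a bar at the mean and whiskers for the SD. Pck1 lies at 189 to 298 CPM in untreated Bbs2-/- libraries against 1652 to 3317 in WT, and Gpd1 and Gpam show overlapping groups. Directions are relative to the bulk of genes, and those of Aqp7, Dgat1, Dgat2 and Lpin1 between untreated Bbs2-/- and WT flip on the adipocyte marker scale.

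**Figure D2:**
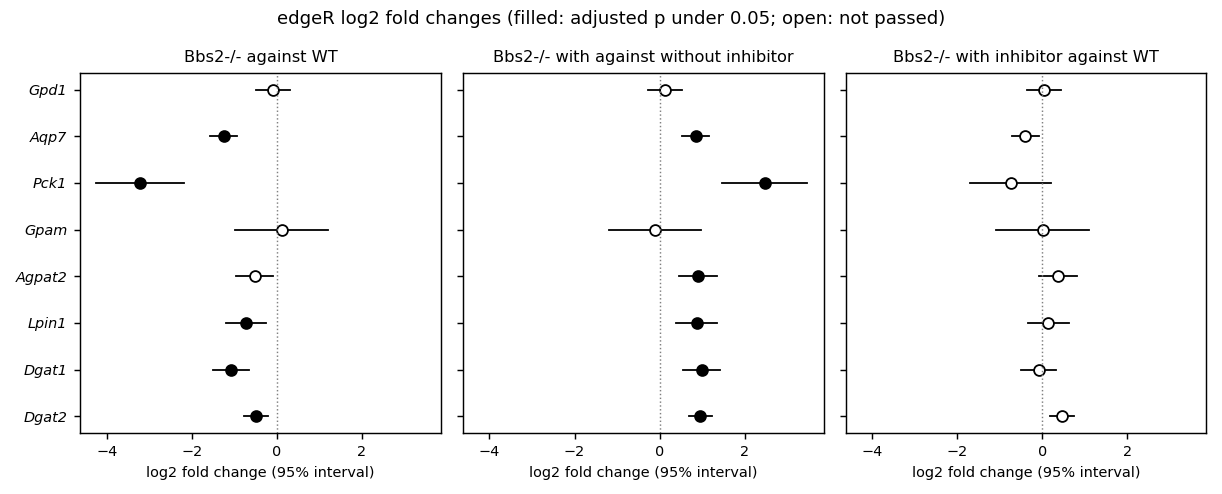
edgeR log2 fold change of each gene in the 3 comparisons, with the 95% interval as a line and filled points where the adjusted p was under 0.05. The values for Pck1 are -3.21, 2.47 and -0.74, and no filled point stands in the comparison of treated Bbs2-/- with WT. These are TMM-scaled fits, and on the adipocyte marker scale the signs of Aqp7, Agpat2, Lpin1, Dgat1, Dgat2 and Gpd1 turn in the first and second comparisons.

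Pck1 (ENSMUSG00000027513.11, chr2:173153048-173159273, plus strand, GRCm38), the cytosolic phosphoenolpyruvate carboxykinase that commits pyruvate carbon to glyceroneogenesis, changed most of the 8 genes. It stood at 1652, 2980, 3317 and 1753 CPM in WT libraries 1 to 4, at 284, 189, 277 and 298 in untreated Bbs2-/- libraries, and at 717, 792, 1188 and 3110 in treated ones. The 3 groups were 2426 ± 847, 262 ± 49.5 and 1452 ± 1125 CPM (SD, n = 4). Every untreated library lay below every WT and every treated library, and the treated libraries ran from far below the WT range to within it. Pck1 fell 9.26-fold in untreated Bbs2-/- tissue (log2 fold change -3.21, SE 0.47, adjusted p = 0.000457) and rose 5.54-fold with the inhibitor (2.47, SE 0.46, adjusted p = 0.0017). Treated against WT it did not pass (-0.74, 95% interval -1.69 to 0.21, adjusted p = 0.585). One library set the size of the treated value: without treated 4 the rise was 1.78 on the log2 scale, still past the threshold, and the difference from WT was -1.43, which did not pass. Its mitochondrial counterpart Pck2 was at 31.3 ± 2.96 CPM in WT and 25.7 ± 1.47 in untreated libraries (-0.28, adjusted p = 0.0283), so Pck1 made up 99% of the FPKM of the pair in WT and 93% in untreated Bbs2-/-.

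Aqp7 (ENSMUSG00000028427.13, chr4:41033074-41048139, minus strand) was at 189, 320, 274 and 279 CPM in WT libraries. The untreated Bbs2-/- libraries held 104, 106, 128 and 109 CPM, and the treated ones 177, 210, 199 and 218. Untreated libraries lay below both other groups without overlap, and the treated range overlapped the WT range through WT 1. The channel gene fell 2.37-fold (-1.25, SE 0.15, adjusted p = 0.000139) and rose 1.8-fold with the inhibitor (0.85, SE 0.15, adjusted p = 0.000963). Treated libraries stood at 201 ± 18 CPM and WT at 265 ± 55.2, a difference that did not pass (-0.40, interval -0.71 to -0.09, adjusted p = 0.343). Other channels that carry glycerol were low: Aqp7 made up 96.7%, 94.8% and 96.7% of the summed FPKM of Aqp3, Aqp7 and Aqp9 in WT, untreated and treated groups.

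Gpd1 (ENSMUSG00000023019.12, chr15:99717515-99725005, plus strand), the cytosolic enzyme that reduces dihydroxyacetone phosphate to glycerol 3-phosphate, did not pass in any of the 3 comparisons. Its levels were 719, 1205, 970 and 1062 CPM in WT, 1032, 906, 1066 and 724 in untreated Bbs2-/-, and 964, 980, 843 and 1291 in treated libraries. All 3 ranges overlapped. The log2 difference of untreated from WT was -0.09 (interval -0.49 to 0.31, adjusted p = 0.742) and that of treated from untreated 0.13 (-0.27 to 0.53, adjusted p = 0.616), so a change of the size seen in Aqp7 lies outside both intervals. In exon bases, 384 of Gpd1 are shared with Gm16537, an antisense gene, and since the strand setting of the counting is unstated, reads of the pair may be mixed.

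Other genes that make, use up or move glycerol 3-phosphate or glycerol, a list of 8 of which 7 were tested, gave 1 that rose and 3 that fell in untreated Bbs2-/- tissue. Their median was -0.28. Because the list mixes enzymes that make glycerol 3-phosphate with enzymes that use it up, its counts and median do not measure supply. Over all genes 39.2% passed in that comparison, and 37.2% with the inhibitor. Gk, glycerol kinase, which phosphorylates free glycerol, rose from 15.1 ± 3.64 to 30.9 ± 4.04 CPM (1.04, adjusted p = 0.00639). Gpd2, the mitochondrial glycerol 3-phosphate dehydrogenase, fell (-0.90, adjusted p = 0.00708), as did the channel gene Aqp11 (-1.42, adjusted p = 0.00219) and Pck2. With the inhibitor 2 rose and 1 fell: Pck2 (0.29, adjusted p = 0.0288) and Pgp, a glycerol 3-phosphate phosphatase (0.56, adjusted p = 0.0263), rose and Gk fell (-0.71, adjusted p = 0.039). Gk therefore ran opposite to Pck1 in both comparisons, at a level far below it. In treated against WT 0 of the 7 passed, beside 0.257% of all genes.

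Gpam (ENSMUSG00000024978.10, chr19:55067268-55127238, minus strand), the mitochondrial GPAT that adds the first acyl chain, varied more within groups than between them. WT libraries held 145, 74.5, 38.9 and 36.6 CPM, untreated Bbs2-/- libraries 65.3, 100, 121 and 32.2, and treated libraries 45.3, 73.9, 113 and 64.0. The highest library was 3.95 times the lowest in WT, 3.76 times in untreated and 2.5 times in treated tissue, and all 3 groups overlapped. Log2 differences were 0.11 (interval -0.98 to 1.2, adjusted p = 0.877) for untreated against WT and -0.11 (-1.19 to 0.98, adjusted p = 0.889) for treated against untreated. The differences measured for Dgat2, given further on, lie inside both intervals, so a change of that size in Gpam was not detectable with this spread. Single libraries moved the first difference: it was 0.67 without WT 1, -0.10 without WT 3, -0.11 without WT 4 and -0.13 without untreated 3, and passed in none of these.

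Agpat2 (ENSMUSG00000026922.13, chr2:26593057-26604417, minus strand) encodes the enzyme that adds the second acyl chain and whose loss causes lipodystrophy. It stood at 318, 537, 464 and 497 CPM in WT libraries, 312, 270, 337 and 345 in untreated and 493, 441, 579 and 841 in treated Bbs2-/- libraries. Untreated libraries overlapped WT through WT 1 and lay below every treated library. The difference from WT did not pass (-0.52, SE 0.21, adjusted p = 0.0615). It did pass without WT 1 (-0.66, adjusted p = 0.0155), with DESeq2 (adjusted p = 0.0412) and with the replicate number as a block (adjusted p = 0.0462). It also passed with only the 2 groups compared (adjusted p = 0.03) and without the 4 libraries with Foxj1 counts (adjusted p = 0.0487). Over the alternatives in which the difference was negative, the adjusted p ran from 0.0155 to 0.354. On the adipocyte marker scale its sign turned (0.84, adjusted p = 0.000301). Treatment went with a 1.86-fold rise (0.90, SE 0.21, adjusted p = 0.00537). Agpat2 shares 64 exon bases with Egfl7 on the opposite strand.

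Lpin1 (ENSMUSG00000020593.15, chr12:16535669-16610966, minus strand), a phosphatidate phosphatase that makes diacylglycerol, was at 370, 293, 256 and 194 CPM in WT. Untreated Bbs2-/- libraries held 179, 133, 203 and 159 CPM and treated ones 250, 240, 328 and 413. The untreated and WT ranges overlapped by a single pair, untreated 3 above WT 4, and the treated libraries lay above all untreated ones. Lpin1 fell 1.65-fold in untreated tissue (-0.72, SE 0.22, adjusted p = 0.0211) and rose 1.83-fold with the inhibitor (0.87, SE 0.22, adjusted p = 0.00912). The fall did not pass without WT 1 (adjusted p = 0.0534), untreated 2 (0.08) or untreated 4 (0.0632), without WT 2 and WT 3 together (0.0976), or with scaling to library size alone (0.0639). Treated against WT the difference was 0.14 (interval -0.33 to 0.62, adjusted p = 0.881).

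Dgat1 (ENSMUSG00000022555.12, chr15:76502015-76511953, minus strand), one of the unrelated enzymes that add the last acyl chain, stood at 153, 293, 237 and 242 CPM in WT. In untreated Bbs2-/- libraries it was at 112, 93.1, 107 and 124 CPM, below every WT library, and in treated ones at 186, 207, 184 and 291. It fell 2.12-fold (-1.08, SE 0.20, adjusted p = 0.00134) and rose 1.99-fold with the inhibitor (0.99, SE 0.20, adjusted p = 0.00227). Treated libraries overlapped WT (-0.09, interval -0.51 to 0.33, adjusted p = 0.922).

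Dgat2 (ENSMUSG00000030747.5, chr7:99153658-99182719, minus strand), the other of the DGAT enzymes, was the most abundant of the 8 in both Bbs2-/- groups. WT libraries held 1675, 2096, 2055 and 2073 CPM, untreated libraries 1430, 1237, 1668 and 1280, and treated libraries 2633, 2656, 2584 and 3084. The 3 groups did not overlap, with untreated lowest and treated highest, although untreated 3 and WT 1 were almost level. Dgat2 fell 1.41-fold (-0.49, SE 0.13, adjusted p = 0.00985) and rose 1.95-fold with the inhibitor (0.96, SE 0.13, adjusted p = 0.000255). The fall did not pass without untreated 2 (adjusted p = 0.0505) or without WT 2 and WT 3 (0.104). Above WT, treated libraries differed by 0.47 (SE 0.13, interval 0.19 to 0.75) with an adjusted p of 0.196 in edgeR and 0.00913 in DESeq2, the range over alternatives being 0.00913 to 0.465.

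The Dgat1 level was 11.1 to 16.8% of the Dgat2 level by FPKM in WT libraries, 7.81 to 11.7% in untreated Bbs2-/- and 8.53 to 11.4% in treated ones. On the log2 scale, Dgat1 minus Dgat2 was -2.86 ± 0.25 in WT, -3.40 ± 0.24 in untreated and -3.41 ± 0.19 in treated libraries (SD, n = 4). The difference of untreated from WT was -0.55 by the two-sided exact permutation test (p = 0.0571, adjusted p = 0.0857 over the 3 comparisons), and that of treated from WT was -0.55 with the same exact p values. Treated and untreated differed by -0.01 (exact p = 0.943). With 4 libraries against 4 the smallest p this test allows is 0.0286. The shift of the ratio away from WT in both Bbs2-/- groups was therefore not past the threshold.

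**Figure D3:**
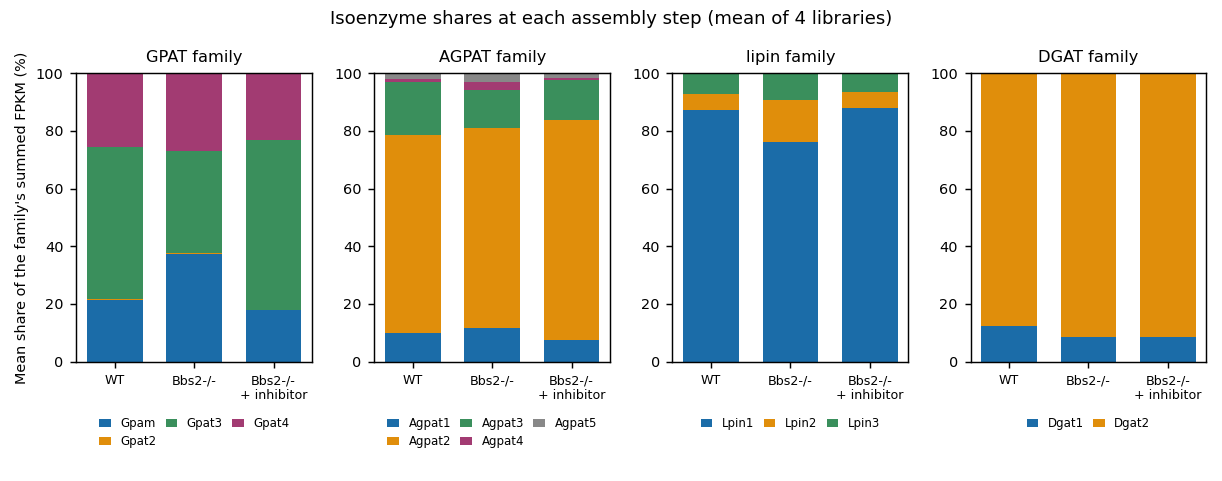
Mean share of each isoenzyme in the summed FPKM of its family, in percent, for the 4 assembly steps and the 3 groups of 4 libraries. Lpin1 makes up 87.2% of the lipins in WT, 76% in untreated and 88% in treated tissue, and Dgat1 makes up 12.2%, 8.6% and 8.59% of the DGATs.

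Both DGAT genes moved in 1 direction, whereas at the other 3 assembly steps the isoenzymes differed in direction or in passing the test. Among the GPATs, Gpat3, the endoplasmic reticulum form best known in fat, fell from 135 ± 38.8 to 54.9 ± 18.8 CPM (-1.30, adjusted p = 0.0127) and rose to 201 ± 97.2 with the inhibitor (1.87, adjusted p = 0.002). Gpat4 fell from 124 ± 4.19 to 76 ± 3.41 CPM (-0.70, adjusted p = 0.000958) and rose with the inhibitor (0.88, adjusted p = 0.00029). Gpam, at a like CPM level in the 3 groups, was 21.5% ± 14.4 of GPAT FPKM in WT, 37.3% ± 13 in untreated and 17.8% ± 6.27 in treated tissue (SD, n = 4), with ranges of 11.8 to 42.5%, 23.8 to 50.6% and 10.2 to 23.1%. Gpat3 was the largest GPAT by mean share in WT (52.7%) and treated tissue (58.9%), and Gpam and Gpat3 were close in untreated tissue (37.3% and 35.3%).

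Agpat2 held 68.6% of AGPAT FPKM in WT, 69.3% in untreated and 76.4% in treated libraries, with the treated range of 73.3 to 80.3% above the WT range of 64.9 to 70.9%. Agpat3 fell in untreated tissue (-0.84, adjusted p = 0.000175) and rose with the inhibitor (0.60, adjusted p = 0.00101), whereas Agpat4 rose (0.72, adjusted p = 0.00332) and then fell (-1.07, adjusted p = 0.000374). While Lpin1 fell, Lpin2 rose from 18.7 ± 5.68 to 32.7 ± 4.3 CPM (0.80, adjusted p = 0.00743) and it fell with the inhibitor (-0.77, adjusted p = 0.00929). Lpin2 made up 5.76% of lipin FPKM in WT, 14.6% in untreated and 5.61% in treated tissue, and its untreated range of 11.4 to 16.9% lay above both others. The shares were not tested.

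Of the other genes of triglyceride assembly, 18 of 19 were tested. In untreated Bbs2-/- tissue 5 rose and 5 fell (median 0.12), and with the inhibitor 6 rose and 4 fell (median -0.07). All genes tested gave 39.2% and 37.2% past the threshold in these comparisons. The largest change of them was in Mogat1, a monoacylglycerol acyltransferase that makes diacylglycerol by another route, at 33.6 ± 4.9 CPM in WT, 7.12 ± 2.35 in untreated and 37.3 ± 18 in treated libraries (-2.24, adjusted p = 0.000534, and 2.39, adjusted p = 0.000391). Tmx1 rose (0.57, adjusted p = 0.000619) and then fell (-0.65, adjusted p = 0.000293). The list was thus split in direction in both comparisons, and 0 of the 18 passed in treated against WT, where 0.257% of all genes did.

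Acyl-CoA synthetases, most of which activate the fatty acids that these enzymes use, gave 2 that rose and 0 that fell of 5 tested in untreated tissue. That share lay close to the 39.2% of all genes that passed. The 5 include Acss2, which activates acetate and not these fatty acids, and which passed neither test (adjusted p = 0.136 and 0.0693). Acsl5 rose (0.52, adjusted p = 0.00137) and fell with the inhibitor (-0.54, adjusted p = 0.00111), and Acsl3 rose in untreated tissue (0.66, adjusted p = 0.0217). Acsl1, the main form in fat, was at 1198 ± 327, 1269 ± 218 and 1171 ± 170 CPM in WT, untreated and treated tissue and passed neither test (adjusted p = 0.776 and 0.689). For the most abundant synthetase by CPM, as for Gpd1, the groups overlapped in both comparisons.

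Relative to the bulk of genes, most genes of triglyceride breakdown fell in untreated Bbs2-/- tissue, as did 10 of 11 adipocyte markers (median -1.45). Of 8 tested, 6 fell and 0 rose (median -1.29), and 5 rose with the inhibitor (median 1.05). Among all genes, 19.7% fell in the first comparison and 18.5% rose in the second. Pnpla2, the lipase that takes the first fatty acid off triglyceride, fell (-1.64, adjusted p = 0.000573) and rose (1.06, adjusted p = 0.00669). Lipe, hormone-sensitive lipase, did so too (-1.49, adjusted p = 0.000158, and 1.40, adjusted p = 0.000197), as did Mgll, monoglyceride lipase (-1.13, adjusted p = 0.000438, and 0.87, adjusted p = 0.00186). Ces1d, a carboxylesterase of lipid droplets, had -2.52 (adjusted p = 0.000168) and 2.06 (adjusted p = 0.000409). G0s2, an inhibitor of the PNPLA2 lipase, fell by 0.63 on the log2 scale (adjusted p = 0.0449) and rose by 1.33 (adjusted p = 0.00102). Lipe is also in the adipocyte marker list, so these are not independent groups.

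Regulators known to act on the 8 genes or on their pathway were a list of 18, all tested. In untreated Bbs2-/- tissue 10 fell and 2 rose (median -0.59), and with the inhibitor 13 rose and 1 fell (median 0.77). The shares of all genes were 19.7% lower and 19.6% higher, and then 18.5% higher and 18.8% lower. Srebf1, the lipogenic transcription factor, was at 225 ± 19.9 CPM in WT, 152 ± 8.49 in untreated and 368 ± 72 in treated libraries. It fell by 0.56 on the log2 scale (adjusted p = 0.00459), rose by 1.27 with the inhibitor (adjusted p = 6.43e-05), and was the 1 regulator that passed in treated against WT (0.71, adjusted p = 0.0477). That last call lay just under the threshold, in a comparison whose 41 calls became 10 on the adipocyte marker scale. Rxra, the partner of PPAR gamma, fell (-0.67, adjusted p = 0.000937) and rose (0.95, adjusted p = 0.00014). Pparg itself did not pass in untreated tissue (-0.28, adjusted p = 0.318) and rose with the inhibitor (0.94, adjusted p = 0.00542). Foxo1, a factor held out of the nucleus by insulin signals, fell (-0.62, adjusted p = 0.00271) and rose (0.68, adjusted p = 0.00167), and Irs1, an adaptor of the insulin receptor, had -1.51 (adjusted p = 0.00134) and 1.15 (adjusted p = 0.00607). Cebpb rose in untreated tissue (1.16, adjusted p = 0.00112).

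By FPKM, the order of the 8 genes changed between groups mainly through Pck1. In WT tissue Pck1 (1011 ± 354) and Dgat2 (968 ± 96.2) led, followed by Gpd1 (383 ± 78.1) and Agpat2 (338 ± 70.3), then Dgat1 (136 ± 33.6) and Aqp7 (121 ± 25.7), and last Lpin1 (56.9 ± 15.3) and Gpam (21.3 ± 14.6). Each of these 4 pairs of neighbours overlapped over the libraries. Untreated Bbs2-/- tissue had Dgat2 (653 ± 93.2) first and Gpd1 (343 ± 57.1) second, then Agpat2 (223 ± 23.7), and Pck1 (104 ± 19.2) had dropped to the fourth place. Below it stood Dgat1 (60.7 ± 6.84) and Aqp7 (48.3 ± 5.06), whose ranges overlapped, and then Lpin1 (32.8 ± 6.04) and Gpam (22 ± 10.9), which overlapped as well. Treated tissue had Dgat2 (1324 ± 98.6) first, and Pck1 (594 ± 453), Agpat2 (432 ± 126) and Gpd1 (389 ± 68.4) overlapping behind it. Dgat1 (125 ± 27.8) and Aqp7 (90.2 ± 8.79) did not overlap there, Lpin1 (62 ± 15.9) overlapped Aqp7, and Gpam (21.2 ± 8.5) was lowest.

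The macrophage and adipocyte sums given above moved with these results. Of the 11 adipocyte markers 10 fell and 0 rose in untreated tissue (median -1.45), and 9 rose with the inhibitor (median 1.35). Of the 15 macrophage markers 13 rose (median 2.23), and 14 fell with the inhibitor (median -2.70). Over all genes 39.2% passed in the first comparison and 37.2% in the second. In whole tissue, fewer adipocytes and less of an RNA per adipocyte cannot be told apart. Values relative to 5 adipocyte markers (Adipoq, Plin1, Cidec, Fabp4 and Plin4) were therefore set beside those relative to all genes. In untreated tissue these 5 fell by 1.11 to 2.06 on the log2 scale, and Slc2a4, Lipe and Cidea lay within that range. Of the rest of the 11, Lep stood at 0.35 and did not pass, and Cfd (-3.12) and Retn (-3.76) fell about as far as Pck1 (-3.21). Results on the adipocyte marker scale therefore depend on the 5 chosen, and other choices were not tested. On that scale the median of all genes was 1.29 for untreated against WT, with 80.2% of genes past the threshold, and -1.13 with 76.2% for treated against untreated, so each gene is read against that median.

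Among the 8 genes, Pck1 stood apart on the adipocyte scale too. It was at 491, 550, 668 and 369 CPM per 1000 CPM of the markers (their geometric mean) in WT libraries, at 136, 123, 135 and 182 in untreated ones and at 208, 229, 277 and 569 in treated ones. The untreated libraries lay below every library of the other groups. Pck1 fell relative to the markers (-1.85, adjusted p = 9.65e-05) and rose with the inhibitor (1.16, adjusted p = 0.00277). Other genes did so too: on this scale 151 genes were lower and 12660 higher in untreated tissue. With the inhibitor 170 were higher and 11996 lower. Aqp7 was at 57.3 ± 1.91, 61.9 ± 8.45 and 49.5 ± 8.74 per 1000 and Dgat1 at 49.5, 60.5 and 52.5 on average. Neither passed in untreated against WT on this scale, Aqp7 at 0.11 (adjusted p = 0.558) and Dgat1 at 0.29 (adjusted p = 0.144). Lpin1 at 0.52 (adjusted p = 0.0699) and Gpam at 1.28 (adjusted p = 0.0634) did not pass either.

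On this scale 4 of the 8 genes passed in untreated Bbs2-/- tissue against WT, where 80.2% of all genes did. Gpd1, Dgat2 and Agpat2 rose relative to the markers and Pck1 fell. Dgat2 and Agpat2 lay below the median of all genes, 1.29, and Gpd1, at 1.26, just under it, so none of them rose relative to that median. Gpd1 was at 214 ± 13.2 per 1000 in WT, 511 ± 61.5 in untreated and 249 ± 41.2 in treated libraries (1.26, adjusted p = 4.68e-05, and -1.04, adjusted p = 0.00018), close to the median of all genes in both. Dgat2 was at 434 ± 47.6, 770 ± 58.9 and 674 ± 107 (0.83, adjusted p = 0.000472), and its difference with the inhibitor did not pass (-0.19, adjusted p = 0.313). Agpat2 was at 98 ± 5.23, 175 ± 25.6 and 140 ± 11.5 (0.84, adjusted p = 0.000301), and its difference with the inhibitor did not pass either (-0.32, adjusted p = 0.0817). With this scaling 2 of the 8 genes passed in treated against untreated tissue and 0 in treated against WT, where 0.0626% of all genes did.

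**Figure D4:**
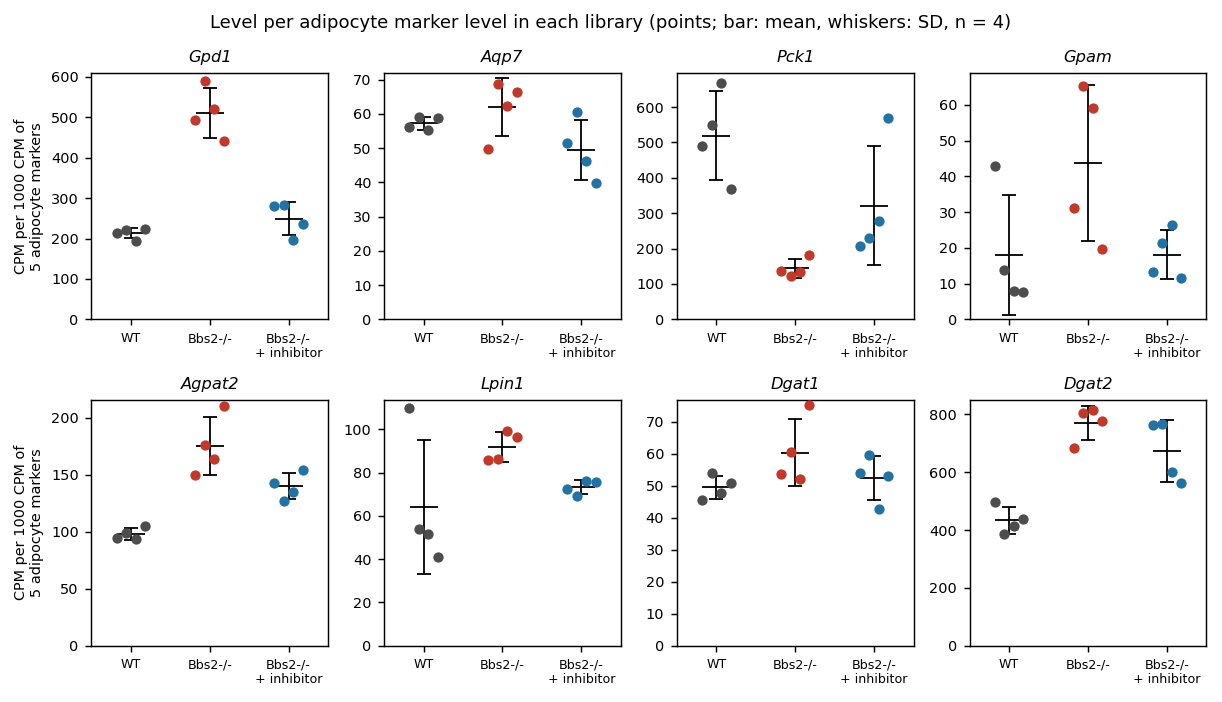
CPM of each gene per 1000 CPM of 5 adipocyte markers (geometric mean) in each library, on a linear axis from 0, with the mean as a bar and the SD as whiskers. Untreated Bbs2-/- libraries lie at 123 to 182 for Pck1, below WT at 369 to 668, and at 441 to 589 for Gpd1, above WT at 195 to 224, whereas the Gpd1 groups overlap when scaled to all genes. On this scale the median log2 fold change of all genes for untreated against WT was 1.29, and that of Gpd1, 1.26, was close to it.

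The 8 genes were compared with one another and with the other genes by profile, as the root mean square difference of log2 CPM over the 12 libraries after each was centred on its mean. Closest among the 8 were Dgat1 and Aqp7 (0.2) and Agpat2 and Dgat2 (0.21), and farthest were Gpam and Pck1 (1.69). Over 12258 protein-coding genes, those nearest to Dgat1 were Irak1bp1 and Tmem120a (0.11 each, against a median of 0.59), and those nearest to Aqp7 were Rbms2 (0.1) and Fgfrl1 (0.11). Agpat2 was nearest to Pmm1 (0.12) and Nfix (0.14), Dgat2 to Wdr6 (0.12) and Bicdl1 (0.13), and Lpin1 to Map9 (0.18) and Slc16a7 (0.2). Gpd1 was nearest to Cnot4 (0.13) and Cenpb (0.14). Pck1 and Gpam had no gene this near: Chst1 (0.36) and Ces1d (0.39) stood nearest to Pck1 and Fan1 (0.37) and Zfp955b (0.40) nearest to Gpam. The distance is not scaled to how widely a gene varies, and the median over all genes was 1.46 for Pck1 and 0.76 for Gpam. It was 0.37 for Gpd1 and 0.53 for Lpin1. The larger distances of Pck1 and Gpam therefore do not show that their patterns are less matched. The distances describe these 12 libraries, which share their groups, and carry no test.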

How the data were processed

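Estimated counts per gene, not scaled, were deposited by the authors for the 12 libraries (totals of 16317865 to 20224200), made from TruSeq stranded mRNA libraries per the labels' protocols. Between 92.96 and 94.17% of these values were whole within 1e-06. The authors also deposited log2 FPKM for 18810 genes, each library having the upper quartile 3.96, and an offset of 1 by its low values. The submitters' processing notes name the build mm10. Aligner, counter and strand setting: not given in the sources used here. Of 53431 identifiers, 52207 were found in GENCODE M21 (51027 in the same version), which gave symbols and positions. Columns left unused numbered 0.

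Counts were rounded and tested with edgeR 4.0.16 (R 4.3.3; TMM, filterByExpr, quasi-likelihood F test, all 3 groups in 1 fit, Benjamini-Hochberg over 15968 genes, threshold 0.05). SE is the log2 fold change over the root of F. The procedure was tested on simulated data. Alternatives were DESeq2 1.42.0, limma 3.58.1 on log2 FPKM, other scalings and filters, the replicate number as a block, and libraries left out. Levels per length are 2 to the power of the deposited value, minus 1. Within-group library pairs differed by 18.2 to 92.7 chi-square per degree of freedom, so no library was counted as a copy. Promoters came from a RefSeq table (GRCm38.p6).

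The 8 genes and all lists were chosen with earlier results of these data known. Of each pathway list up to 5 genes with the smallest p were named, of marker lists up to 3 with the highest CPM, and per gene the 2 nearest profiles among protein-coding genes averaging at least 1 log2 CPM. The isoenzymes, Pparg, Bbs2, Crisp1, Alb, Foxj1 and Ucp1 were named outside that rule, after their values were seen.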

Additional observations from a re-analysis of the deposited data

Results flagged for a closer look

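Dgat2 had a library apart from the others in each of 2 groups. In WT the lowest library, WT 1 at 1675 CPM, was separated from the next by 0.902 of the range of the 4 libraries. In treated Bbs2-/- tissue the highest library, treated 4 at 3084 CPM, was separated by 0.855 of the range. Both are above Dixon's 95% limit for 4 values. The check was run on 27 groups of values, and chance passes about 1 in 20. WT 1 also had the lowest adipocyte and highest macrophage marker sum of its group, and treated 4 had the highest adipocyte sum (46186 CPM) and the lowest macrophage sum (823 CPM) of its group. Treated 4 also held the highest level in its group of every one of the 8 genes except Gpam. The part of these in the Dgat2 values was not tested.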

How the results depend on the processing

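Of 456 alternative values for single genes, 407 kept their direction and side of the threshold, 7 kept their direction and lost a call, 6 kept it and gained one, and 36 changed sign. Of the 36, 8 also lost a call, 3 gained one, 1 was called in both directions and 24 in neither. The cause was not tested for any of these changes. The 5 genes called in untreated against WT became 3 without WT 2 and WT 3, and 3 to 5 when each library of the compared groups was left out. The 6 called in treated against untreated became 2 on the adipocyte marker scale and were 6 with each library left out. The 0 called in treated against WT became 1 with DESeq2, and stayed 0 with each library left out. Over all genes, untreated against WT gave 6263 calls, 12811 on the adipocyte marker scale and 3417 without WT 2 and WT 3, and treated against untreated gave 5947 and 12166 on that scale. Treated against WT gave 41 calls, and 275 with DESeq2, 24 with limma, 2 with the compared groups alone, 9 with the replicate block, 10 on the adipocyte marker scale, 1 without WT 2 and WT 3, 2 without the libraries with Foxj1 counts and 3 to 49 with each library left out.

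Signs turned on the adipocyte marker scale for untreated against WT in Agpat2 (0.836), Lpin1 (0.520), Dgat1 (0.287), Dgat2 (0.83), Gpd1 (1.257) and Aqp7 (0.112). They turned for treated against untreated in Agpat2 (-0.322), Lpin1 (-0.325), Dgat1 (-0.205), Dgat2 (-0.192), Gpd1 (-1.038) and Aqp7 (-0.321), and for treated against WT in Dgat1 (0.082). Scaling to library size alone gave Gpd1 0.109 and -0.002 in the first and second comparisons, moved the median of all genes to 0.16 and -0.1, and gave 69%, 35.5% and 79.6% of calls as higher against 49.9%, 49.6% and 68.3%. Without WT 2 and WT 3, Gpam was -0.177 against WT in untreated and -0.274 in treated tissue, Gpd1 0.080 in untreated and Dgat1 0.160 in treated tissue. Gpam in treated against untreated was 0.029 with limma and 0.025 with the replicate block.

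With each library left out, Gpam ranged from -0.132 to 0.674, -0.392 to 0.145 and -0.272 to 0.567 over the 3 comparisons, and Gpd1 from -0.211 to 0.050, -0.006 to 0.210 and -0.091 to 0.153. Lpin1 ranged from -0.030 to 0.313 and Dgat1 from -0.265 to 0.042 in treated against WT. The Dgat1 to Dgat2 difference of treated from untreated was 0.002 with a pseudocount of 0.1, 0.003 per kilobase of exon, and -0.100 to 0.097 with each library left out.

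Libraries of equal number share only that number. Of 12 such pairs, 4 had deviations correlated over 0.1 (-0.149 to 0.308, against -0.302 to 0.344 for other pairs), and 5 of 12 libraries correlated best with their own number. The replicate block gave 6, 6 and 0 calls among the 8 genes, and moved 41 calls to 9 over all genes in treated against WT. At these depths the fewest estimated counts of any of the 8 genes in a library were 587, for Gpam in WT 3.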
